A study of Phalaenopsis aphrodite subsp. formosana with 4 samples.

Results

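miR168 and miR162 are microRNA families that act on the small RNA machinery of plants, and both were read in leaves, stalks and flower buds of the orchid Phalaenopsis aphrodite subsp. formosana. A sequence was counted as a member when the known miRNA it matched best is a miR168 or a miR162. This took 1014 of 11129 unique sequences and 177161 of 1002362 matched reads, with 930 sequences (174936 reads) in miR168 and 84 sequences (2225 reads) in miR162.

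All plants were of the line M1624 and were first grown at 28°C. NL is the library of untreated leaves, from plants then moved to 32°C by day and 27°C by night, a regime that holds back the flower stalk. CL is the library of leaves from plants given the low temperature treatment for 2 months, with days at 24°C and nights at 18°C. Leaves of both groups were taken from month 0, the start of the treatment, to month 2. The stalk library (S, months 1.5 to 2) and the flower bud library (FB, month 3.5) came from plants of the low temperature group, the only one that made these organs. The flower buds were taken after the stated 2 months of treatment, and the temperature of the plants from then on was not given. The study calls the libraries pools, but does not state how many plants or which of the time points entered each. Each library stands alone for its condition, so that no difference between libraries has a replicate check in these sequencing data. The paper states that its experiments had biological replications, but the tables used here hold 1 library per condition. Tissue also goes with age and harvest month in S and FB, and these cannot be told apart. No mRNA was in the tables used here, and the tissues were not checked against marker genes.

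In Arabidopsis, miR168 directs cleavage of the mRNA of ARGONAUTE1 (AGO1), the protein that carries most plant miRNAs, and AGO1 loaded with miR168 thereby limits its own supply. miR162 does the same for DICER-LIKE1 (DCL1), the enzyme that cuts miRNAs out of their hairpin precursors. The pair therefore forms a feedback loop on the processing and on the loading step of the pathway. Neither AGO1 nor DCL1 was measured in the tables described here.

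The sequences that hold most reads of each family are shown first, with the seed (bases 2 to 8 from the 5′ end) in capitals and T for U as in the sequenced cDNA. Known miRNAs of other plants, as the deposited tables give them, follow in lower case.
miR168 cytosine form: tCGCTTGGtgcaggtcgggac
miR168 adenine form: tCGCTTGGtgcaggtcgggaa
miR168 uracil form: tCGCTTGGtgcaggtcgggat
miR162 main form: tCGATAAAcctctgcatccgg
Arabidopsis ath-miR168a: tcgcttggtgcaggtcgggaa
Rice osa-miR168a: tcgcttggtgcagatcgggac
Arabidopsis ath-miR162a: tcgataaacctctgcatccag

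The 3 miR168 sequences share their first 20 bases and therefore 1 seed, and are named here for the base at position 21. The adenine form is identical to ath-miR168a. With the known miRNA's base first, then the position counted from 1 at the 5′ end, then the orchid base, ath-miR168a differs from the cytosine form by A21C and osa-miR168a differs from it by A14G. The miR162 main form differs from ath-miR162a by A20G. The seed of miR162 differs from that of miR168, and no sequence was a member of both families. ath-miR168a was the best match of 99.7% of miR168 reads and ath-miR162a that of 98.9% of miR162 reads. The cytosine form, however, has 1 difference from ath-miR168a and 1 from osa-miR168a. Its deposited label therefore does not place it closer to the Arabidopsis than to the rice sequence.

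Levels are reads per 1000000 clean reads (RPM), where clean reads are all reads of a library left after the authors' filters. Intervals are 95% intervals of counting error only. Reads amplified by PCR without molecular identifiers are not independent molecules, so that the true error is larger. The tables held 226523 matched reads (NL), 404345 (CL), 106142 (S) and 265352 (FB), which is 31454, 54648, 13243 and 42005 per 1000000 clean reads. Because the matched part of the libraries differed this much, ratios to another library are also given per matched read. miR528, the family with the most reads, made up 20.8%, 40.5%, 8.90% and 42.8% of the matched reads in NL, CL, S and FB.

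miR168 was among the most abundant families in every library. It held 37709 reads (NL), 66289 (CL), 38451 (S) and 32487 (FB), or 5236, 8959, 4797 and 5143 RPM. CL stood highest, and NL, FB and S followed within a narrow range. The counting intervals of NL (5184 to 5289 RPM) and FB (5087 to 5199 RPM) overlapped. Its share of the matched reads was 16.6% (NL), 16.4% (CL), 36.2% (S) and 12.2% (FB). By reads it ranked 3, 2, 1 and 3 in these libraries, and 2 of 368 families over all of them.

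miR162 was far below miR168 in every library. It held 456 reads (NL), 655 (CL), 335 (S) and 779 (FB), or 63.3, 88.5, 41.8 and 123 RPM. FB was highest and S lowest, and the counting intervals of the 4 libraries did not overlap. Its share of the matched reads was 0.201%, 0.162%, 0.316% and 0.294% in the same order, and it ranked 14 of 368 families over all libraries.

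**Figure D1:**
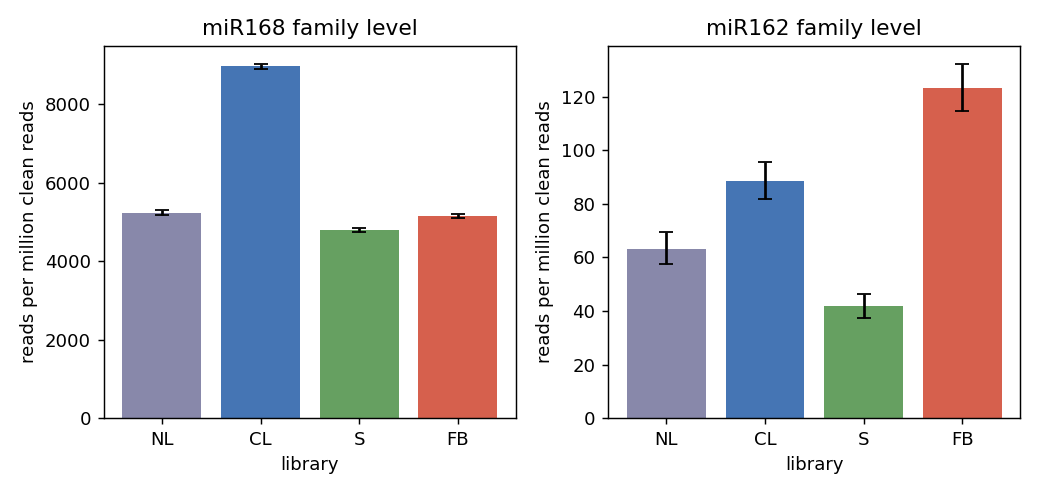
Level of the miR168 family (left) and the miR162 family (right) in reads per 1000000 clean reads in NL, CL, S and FB, with bars starting at 0 and error bars for the 95% interval of counting error (1 library each). miR168 was highest in CL at 8959 RPM, miR162 highest in FB at 123 RPM, and S was the lowest library for both, although per matched read both families were higher in S than in CL.

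The comparison of CL with NL asks what low temperature goes with in leaves. miR168 had 1.71 times the RPM in CL (1.69 to 1.73) but 0.985 times the share of matched reads (0.972 to 0.997), so that its direction turned with the denominator. A ratio above 1.5 was called higher and one below the inverse of 1.5 lower, for families with at least 100 reads over the compared libraries. By this rule miR168 was higher, as were 11 of 25 families tested (44%), and it ranked 6 of 25. The ratio of miR162 was 1.40 (1.24 to 1.58) in RPM and 0.805 (0.713 to 0.909) per matched read. miR162 was not called, and its RPM ratio was the median of the 25 families. By northern hybridization, which is outside the tables used here, the paper reports miR162 as induced in leaves by low temperature.

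The comparison of S with CL sets stalk beside leaf of the same treatment. The RPM of miR168 in S was 0.535 times that in CL (0.529 to 0.542) and that of miR162 0.472 times (0.413 to 0.539), while per matched read both were higher in S, at 2.21 times (2.18 to 2.24) for miR168 and 1.95 times (1.70 to 2.23) for miR162. Both were called lower by RPM, as were 18 of 25 families (72%), and they ranked 12 and 13 of 25, miR162 again being the median. In a tissue library, fewer cells that hold a miRNA and less of it per cell cannot be told apart.

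In the comparison of FB with CL the ratios of the families lay on opposite sides of 1, in RPM and per matched read. The RPM of miR168 in FB was 0.574 times that in CL (0.566 to 0.582), and 0.747 times (0.737 to 0.757) per matched read. That of miR162 was 1.39 times (1.25 to 1.55), and 1.81 times (1.63 to 2.01) per matched read. miR168 was called lower, as were 6 of 28 families (21.4%), and ranked 23 of 28. miR162 was not called by RPM, where 9 of 28 families (32.1%) were called higher, and ranked 10 of 28, the median of all families being 0.939. Set against NL in place of CL, miR168 in FB was at 0.982 times (0.968 to 0.997) and miR162 at 1.95 times (1.73 to 2.19) in RPM, and at 0.735 and 1.46 times per matched read.

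The balance of the families needs no denominator, since both were counted in the same library. There were 82.7 reads of miR168 for each read of miR162 in NL (75.4 to 90.9), 101 in CL (93.7 to 109), 115 in S (103 to 128) and 41.7 in FB (38.8 to 44.8). FB stood apart, and its interval did not reach that of any other library. The odds of a read being miR168 and not miR162 in FB were 0.412 times those in CL (0.371 to 0.458), 0.504 times those in NL (0.449 to 0.567) and 0.363 times those in S (0.319 to 0.413). Between the leaf libraries this odds ratio was 1.22 (1.09 to 1.38), and between S and CL it was 1.13 (0.994 to 1.29), whose interval spans 1.

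Within miR168, the cytosine, adenine and uracil forms held 88.9% of the reads over all libraries and between 88.2% (NL) and 90.1% (FB) in each. The cytosine form, which has 1 mismatch to ath-miR168a, had 14838 reads (NL), 33578 (CL), 21836 (S) and 18712 (FB), or 2060, 4538, 2724 and 2962 RPM. The adenine form, the perfect match, had 15098, 18286, 10300 and 8330 reads, or 2096, 2471, 1285 and 1319 RPM. The uracil form, also with 1 mismatch, had 3317, 7131, 1855 and 2218 reads, or 461, 964, 231 and 351 RPM. The cytosine form was therefore level with the adenine form in NL and above it in CL, S and FB, and the uracil form was the least abundant of them everywhere.

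As a share of the family, the cytosine form made up 39.3% in NL (38.9 to 39.8), 50.7% in CL (50.3 to 51.0), 56.8% in S (56.3 to 57.3) and 57.6% in FB (57.1 to 58.1). The adenine form made up 40.04% in NL (39.5 to 40.5), 27.6% in CL (27.2 to 27.9), 26.8% in S (26.3 to 27.2) and 25.6% in FB (25.2 to 26.1). NL thus differed from the 3 libraries of the low temperature group, with the intervals of both forms far apart. The uracil form followed another order, with 8.80% (NL), 10.8% (CL), 4.82% (S) and 6.83% (FB), higher in both leaf libraries than in S and FB.

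**Figure D2:**
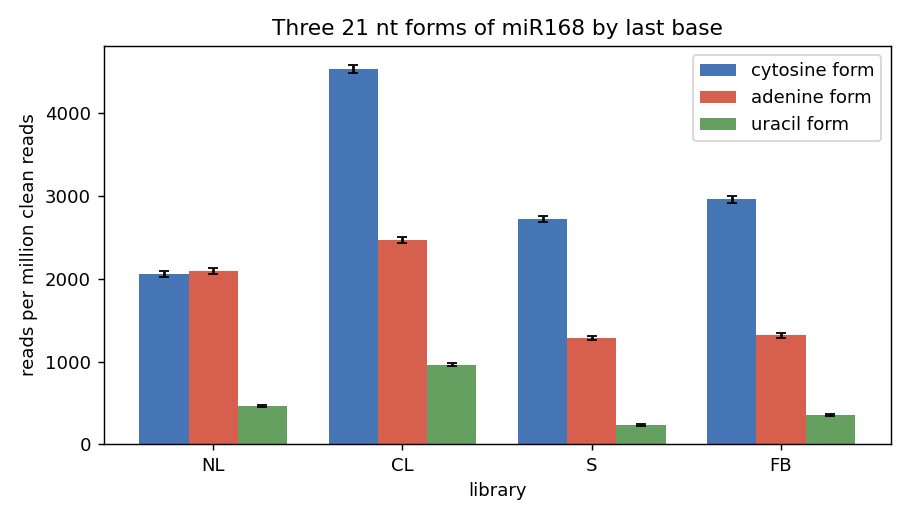
Level of the cytosine, adenine and uracil forms of miR168, which differ only in the last of their 21 bases, in reads per 1000000 clean reads in each library, with bars starting at 0 and error bars for the 95% interval of counting error. The cytosine and adenine forms were level in NL (2060 and 2096 RPM), and the cytosine form was above the adenine form in CL (4538 and 2471 RPM), S and FB.

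The ratio between 2 forms is also free of the denominator. The odds of the cytosine against the adenine form in CL were 1.87 times those in NL (1.82 to 1.92). From CL the same odds were 1.15 times as high in S (1.12 to 1.19) and 1.22 times as high in FB (1.19 to 1.26), smaller differences than that between the leaves. The uracil form kept closer to the cytosine form between the leaves, with an odds ratio of uracil to cytosine of 0.95 (0.908 to 0.994) for CL against NL. It parted from the cytosine form in the other tissues, where this odds ratio to CL was 0.400 (0.379 to 0.422) in S and 0.558 (0.530 to 0.587) in FB.

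On the RPM scale the CL to NL ratio was 2.20 for the cytosine form (2.16 to 2.25), 2.09 for the uracil form (2.01 to 2.18) and 1.18 for the adenine form (1.15 to 1.20), and per matched read these were 1.27, 1.20 and 0.679, so that the adenine form was lower in CL on that scale. The S to CL ratio was 0.600, 0.240 and 0.520 for the cytosine, uracil and adenine forms in RPM, and 2.48, 0.991 and 2.15 per matched read. The FB to CL ratio was 0.653, 0.364 and 0.534 in RPM, and 0.849, 0.474 and 0.694 per matched read. The uracil form had the smallest of these ratios in S and in FB on either scale.

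The classes of mismatches and gaps, the latter including bases beyond the end of the match, show the same split under the labels of known miRNAs. Perfect matches made up 40.1% of miR168 reads (NL), 27.6% (CL), 26.8% (S) and 25.7% (FB). They came from only 2 sequences, the adenine form with 52014 reads and a sequence identical to osa-miR168a with 50 reads. Sequences with a sum of 1 made up 54.6%, 66.7%, 66.6% and 68.5%, over 96 sequences. Perfect and 1-mismatch or 1-gap sequences together held a nearly constant part of the family, at 94.6% (NL), 94.3% (CL), 93.5% (S) and 94.2% (FB). The CL to NL ratio of RPM was 1.18 for perfect matches and 2.09 for sequences with a sum of 1, and per matched read 0.679 and 1.20. Sums of 2 held 5.11% of the reads over 463 sequences, and sums of 3 to 5 held the remainder. The most abundant sequences with sums of 4 and 5 had 43 and 4 reads in miR168, and 7 and 1 in miR162.

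miR162 held no perfect match to any known miRNA. None of its 2225 reads was one, which allows a share of up to 0.135%. The main form, with its single mismatch A20G, had 338 reads (NL), 508 (CL), 253 (S) and 588 (FB), or 46.9, 68.7, 31.6 and 93.1 RPM. It made up 74.1%, 77.6%, 75.5% and 75.5% of the family, shares with overlapping intervals, and followed the family in having its highest level in FB. Its RPM ratio was 1.46 for CL to NL (1.27 to 1.68), 0.460 for S to CL (0.394 to 0.536) and 1.36 for FB to CL (1.20 to 1.53), and per matched read 0.842, 1.90 and 1.76, which turns the direction of the CL to NL and S to CL ratios. All sequences with a sum of 1 made up 75.2%, 77.7%, 75.8% and 76.6% of miR162 in NL, CL, S and FB, over 6 sequences.

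Beyond the abundant forms, the sequences of miR168 with at least 100 reads over the compared libraries can be set beside all such sequences. For CL to NL, 8 of 12 miR168 sequences were above a ratio of 1.5 and none was below its inverse, where 40.9% of 154 sequences were above and 13% below, and per matched read 1 of the 12 was above 1.5, where 24.7% of all were. Their median was 1.85, against 1.35 over all sequences, and per matched read 1.06 against 0.775. For S to CL, 12 of 12 were below the inverse of 1.5, where 77.7% of 139 sequences were and 7.19% were above 1.5, while per matched read 11 of 12 were above 1.5, where 46% of all were. Their median was 0.544, against 0.220 over all sequences, and per matched read 2.25 against 0.907, on the other side of 1. For FB to CL, 7 of 13 were below the inverse of 1.5 and none was above 1.5, against 33.3% below and 23% above among 165 sequences, and per matched read 4 of 13 were below, where 26.7% of all were. These sequences are variants of each other and most share the base at position 21 with a main form, so they do not count as separate evidence.

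Ends other than those of the main forms carried further differences. The most abundant of them are shown with the base at position 21 of the main form, and any base beyond it, in capitals.
miR168 ending at position 20: tcgcttggtgcaggtcggga
miR168 shifted, positions 2 to 22: cgcttggtgcaggtcgggaAT
miR168 shifted, adenine, positions 2 to 21: cgcttggtgcaggtcgggaA
miR168 shifted, cytosine, positions 2 to 21: cgcttggtgcaggtcgggaC
miR168 extended, positions 1 to 22: tcgcttggtgcaggtcgggaAT
miR168 shifted, cytosine, positions 3 to 21: gcttggtgcaggtcgggaC
miR168 shifted, adenine, positions 3 to 21: gcttggtgcaggtcgggaA

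The sequence that stops at position 20 had 1167 reads (NL), 1926 (CL), 1036 (S) and 599 (FB), and lacks the base that tells the 3 forms apart. The sequence of positions 2 to 22, also 21 nt long, had 722, 1164, 803 and 236 reads, or 100.3, 157, 100.2 and 37.4 RPM. Its level in FB was 0.237 times that in CL (0.206 to 0.273), and 0.309 times per matched read, the smallest FB to CL ratio among the miR168 sequences with at least 100 reads in that comparison. A shift of 1 base moves the seed of these reads from CGCTTGG to GCTTGGT.

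Reads starting at position 2 were mostly a property of sequences with adenine at position 21. Among reads that carry no substitution, 7.77% of those with adenine at position 21 started at position 2 in NL (7.37 to 8.19), 9.48% in CL (9.08 to 9.89), 10.7% in S (10.2 to 11.3) and 5.76% in FB (5.29 to 6.26). Of those with cytosine there, 0.659%, 0.781%, 0.762% and 0.909% did so, and of those with uracil 0.714%, 0.611%, 0.901% and 0.930%. The odds of a start at position 2 were 12.7 times as high with adenine as with cytosine in NL (10.3 to 15.6), 13.3 times in CL (11.7 to 15.2), 15.6 times in S (13.3 to 18.4) and 6.66 times in FB (5.60 to 7.93). Between uracil and cytosine the interval of this odds ratio spanned 1 in each library. S had the highest share of shifted adenine reads and FB the lowest.

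**Figure D3:**
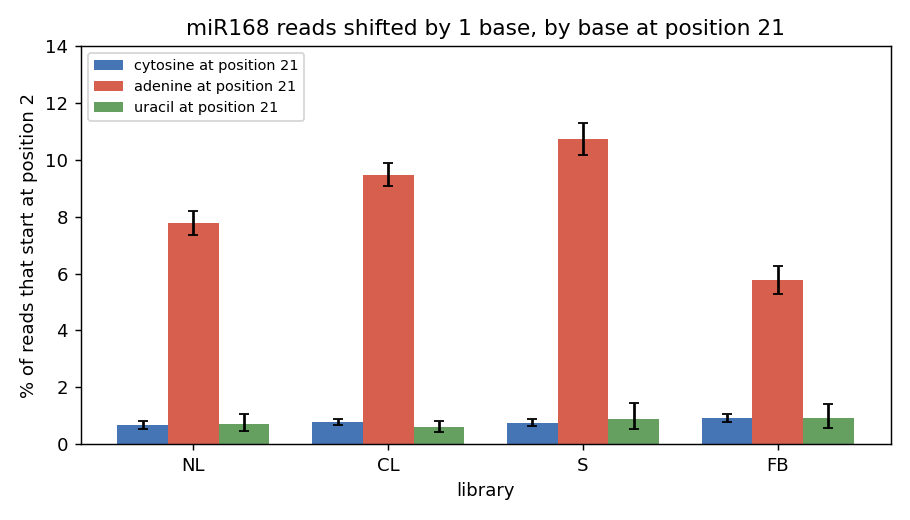
Share of miR168 reads without substitutions that start at position 2, by the base at position 21 and by library, with error bars for the 95% interval of counting error. With adenine at position 21 the shares were 7.77% (NL), 9.48% (CL), 10.7% (S) and 5.76% (FB), and with cytosine or uracil all shares were below 1%.

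The start and the end of the adenine reads moved together. Of adenine reads that start at position 2 and end at position 21 or 22, those ending at 22 made up 57.0% in NL (54.3 to 59.8), 60.7% in CL (58.5 to 62.9), 64.9% in S (62.1 to 67.5) and 46.2% in FB (41.8 to 50.6). Of adenine reads that start at position 1 and end at position 21 or 22, only 0.579%, 0.528%, 0.493% and 0.454% ended at 22. The shifted reads thus mostly kept a length of 21 nt, except in FB, where the 20 nt sequence of positions 2 to 21 had 277 reads beside 236 of the 21 nt sequence. With cytosine at position 21, reads of positions 2 to 21 had 99, 257, 166 and 172 reads in NL, CL, S and FB, and cytosine reads that start at position 2 and end at position 22 numbered 0, 9, 3 and 1. The 19 nt sequences of positions 3 to 21 had 46, 132, 89 and 91 reads with cytosine and 55, 79, 45 and 50 reads with adenine.

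**Figure D4:**
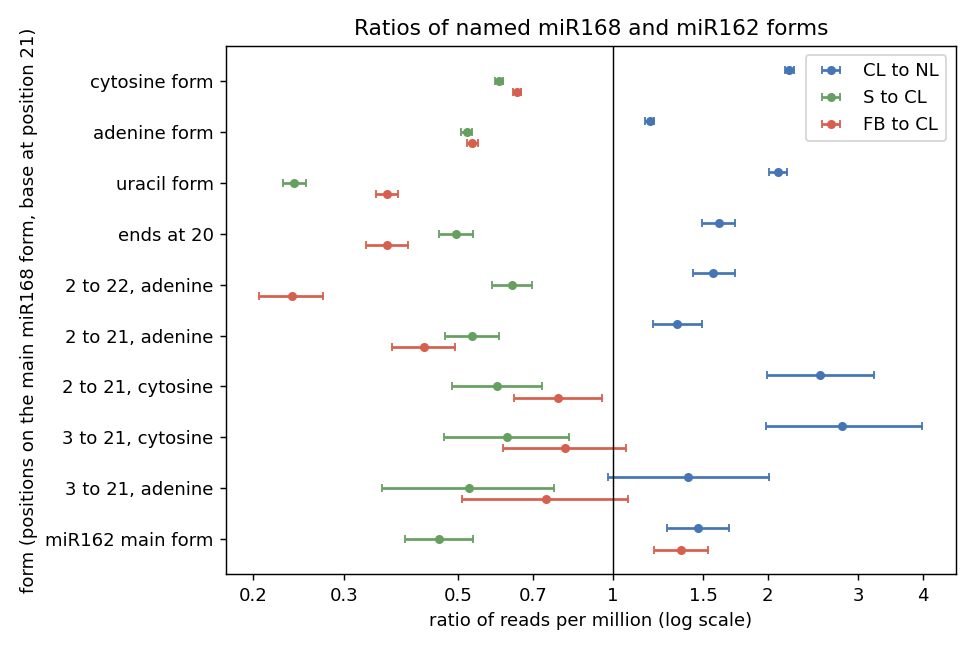
Ratios of reads per 1000000 clean reads for the 9 most abundant unsubstituted miR168 sequences and the miR162 main form, on a log scale, for CL to NL, S to CL and FB to CL, with bars for the exact 95% interval of counting error and a line at 1. The CL to NL ratios of miR168 ran from 1.18 (adenine form) to 2.79 (positions 3 to 21, cytosine), and the FB to CL ratio of miR162 (1.36) lay above 1 where those of miR168 lay below, although per matched read the FB to CL ratios of the shifted cytosine sequences were 1.02 and 1.05, the S to CL ratios of all but the uracil form were above 1 and the CL to NL ratios of the adenine sequences, of the sequence ending at position 20 and of miR162 were below 1.

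The shifted sequences ending at position 21 had a higher CL to NL ratio with cytosine than with adenine, as the main forms did. For positions 3 to 21 the intervals of these ratios overlapped. For positions 2 to 21 the CL to NL ratio of RPM was 2.53 with cytosine (2.00 to 3.22) and 1.34 with adenine (1.20 to 1.49), and for positions 3 to 21 it was 2.79 (1.98 to 3.997) and 1.40 (0.978 to 2.01). Per matched read these were 1.45 and 0.769, and 1.61 and 0.805. When any miR168 sequence that reaches position 21 is sorted by its base there, whatever its ends, cytosine made up 42.8% (NL), 55.1% (CL), 62.1% (S) and 62.9% (FB), and adenine 47.5%, 33.2%, 32.6% and 29.6%. Guanine at this position was rare, with 15, 30, 11 and 10 reads, at most 0.0468% of a library's miR168 reads that reach position 21.

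The ends of miR162 differed from those of miR168 mainly by longer reads. The 22 and 23 nt sequences with the most reads are shown with the last base of the main form and the bases added after it in capitals.
miR162 main form: tcgataaacctctgcatccgG
miR162, 22 nt: tcgataaacctctgcatccgGT
miR162, 23 nt, T added: tcgataaacctctgcatccgGTT
miR162, 23 nt, A added: tcgataaacctctgcatccgGTA
miR162 shifted, 20 nt: cgataaacctctgcatccgG

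Reads of 22 nt or longer made up 18.4% of miR162 in NL (15.0 to 22.3), 16.03% in CL (13.3 to 19.1), 17.6% in S (13.7 to 22.1) and 14.1% in FB (11.8 to 16.8), with overlapping intervals. In miR168 the shares were 0.483%, 0.415%, 0.492% and 0.385%. The odds of such a length were 46.6, 45.8, 43.3 and 42.6 times as high in miR162 as in miR168, in the same order, and the lowest bound of these intervals was 31.6. The 22 nt sequence had 32, 50, 20 and 32 reads in NL, CL, S and FB. The 23 nt sequence ending in TT had 26, 23, 14 and 44 reads, and that ending in TA had 7, 11, 11 and 12. Relative to CL, the 23 nt sequence ending in TT was at 2.24 times the RPM in FB (1.32 to 3.89), while the 22 nt sequence was at 0.750 times (0.465 to 1.19), and per matched read these were 2.92 and 0.975. The TT sequence had 67 reads and the 22 nt sequence 82 over these libraries, under the limit of 100 reads for a call. Without a genome or precursor sequence, templated and added bases at these ends were not separated here.

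Most reads of both families began with T and were 21 nt long. A 5′ T (U in the miRNA), the first base of miRNAs that AGO1 prefers in Arabidopsis, was found in 95.1% to 96.8% of miR168 reads and 95.3% to 97.4% of miR162 reads, over the 4 libraries. Reads of 21 nt made up 93.7% to 95.04% of miR168 and 76.8% to 79.8% of miR162. C as the first base, which is the base at position 2 of both main forms, took 4.16%, 3.81%, 4.16% and 2.53% of miR168 reads in NL, CL, S and FB, the lowest share again in FB.

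Some unique sequences of both families differ from a main form by a single base. Substitutions at positions 1 to 19 were counted for 21 nt reads with the ends of a main form. A single one was found in 3.34% of the cytosine form reads (3.23 to 3.46), 3.14% of the adenine form reads (2.99 to 3.29), 3.19% of the uracil form reads (2.92 to 3.49) and 3.43% of the miR162 main form reads (2.63 to 4.40). In 12 other families whose main form had at least 1000 reads the share ran from 0.770% to 41.5%, with a median of 4.62%. The highest was that of miR172, with 97.8% (NL), 93.1% (CL), 5.80% (S) and 7.43% (FB). Among its abundant miR172 sequences the paper lists a pair that differ only in the first base, C or A. This share can therefore count abundant members of a family together with rare variants, so the range and median do not measure rare variants alone. The lowest share was that of miR397, with 6 of 57 possible substitutions seen. The deposited matches held at most 2 mismatches, a limit that can hide substitutions of a main form that already has that many. Its effect on these shares was not tested. All 57 possible single substitutions were seen for the cytosine and the adenine form, and 55 of them for the uracil form.

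The substitutions were not spread evenly. Positions 9 and 15, both T, held 33.4% of them in the cytosine form, 33.8% in the adenine form and 34.9% in the uracil form. The most frequent are shown with the substituted base in capitals, the first a change of T9G, the next of T15G and the third of T9C.
miR168 T9G: tcgcttggGgcaggtcgggac
miR168 T15G: tcgcttggtgcaggGcgggac
miR168 T9C: tcgcttggCgcaggtcgggac
The T9G sequence had 35 reads (NL), 80 (CL), 57 (S) and 64 (FB), and the T15G sequence 33, 88, 53 and 48. Over all libraries T9G was seen in 236 reads of the cytosine form, 137 of the adenine form and 43 of the uracil form. The most frequent substitution was thus the same at each 3′ end. In the miR162 main form, C9T with 11 reads was the most frequent of 27 substitutions seen. Position 9 was thus the top position there too, and positions 9 and 15 held 26.7% of its 60 substituted reads. The peak at position 9 was therefore not particular to miR168.

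**Figure D5:**
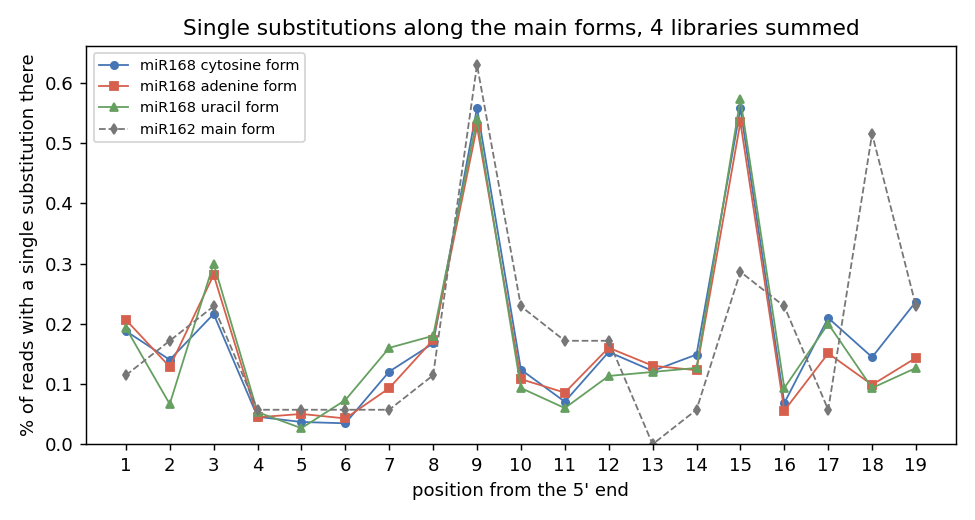
Share of 21 nt reads with a single substitution at each of positions 1 to 19, over the 4 libraries summed, for the 3 main forms of miR168 and the main form of miR162. The miR168 forms follow each other, with peaks at positions 9 and 15 that hold 33.4% to 34.9% of their substitutions. The line of miR162, also highest at position 9, rests on 60 substituted reads.

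The perfect match to osa-miR168a can also be written as the cytosine form with G14A. It had 6 reads (NL), 18 (CL), 17 (S) and 9 (FB). At the same position of the cytosine form, G14T had 62 reads and G14C 25, and the median over all 57 substitutions of this form was 36 reads. The 50 reads of the G14A sequence lay within the wide range of the other substitutions, from 1 to 236. Whether it is a variant of the cytosine form or a separate miRNA was not tested.

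Most unique sequences were rare and most reads came from shared ones. Of the miR168 sequences, 494 (53.1%) were read once and 164 (17.6%) were found in all 4 libraries, and the latter held 99.1% of the reads. Of the miR162 sequences, 51 (60.7%) were read once, and the 11 found in all libraries held 94.1% of the reads. Only 6 sequences of miR168 and 1 of miR162 had at least 1000 reads.

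The other miRNA families of the small RNA pathway list were below miR168 and miR162 in reads in every library. miR390, which acts with ARGONAUTE7 (AGO7) to start the production of trans-acting siRNAs from TAS3 transcripts, had 367 reads (NL), 338 (CL), 239 (S) and 263 (FB), or 51.0, 45.7, 29.8 and 41.6 RPM. Its RPM ratio was 0.896 for CL to NL (0.771 to 1.04), 0.653 for S to CL (0.551 to 0.773) and 0.911 for FB to CL (0.773 to 1.07), and per matched read these were 0.516, 2.69 and 1.19, which turns the directions in S and FB. Of the 3 pathway families with enough reads, by RPM 1 (miR168) was called higher in CL than in NL, as were 44% of all families, 3 were called lower in S than in CL, as were 72%, with the reversed direction per matched read given above, and 1 (miR168) was called lower in FB than in CL, as were 21.4%. miR173 and miR828, which in Arabidopsis trigger siRNAs from TAS1, TAS2 and TAS4 transcripts, had at most 3 reads in any library. miR403, which targets AGO2 in Arabidopsis, and miR838, which lies in an intron of DCL1 there, had 0 reads in every library, which allows levels of up to 0.475 RPM in the library with the fewest clean reads.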

How the data were processed

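One small RNA library each from NL, CL, S and FB (RNA of 20 to 25 nt cut from a gel, Illumina 1G) was used. Per the labels and the methods of the study, the authors removed adaptors, contaminants, polyA and reads below 18 nt, collapsed identical reads and aligned the unique sequences by BLAST to miRBase 15. For BLAST, a version was not given in the sources used here. Deposited for each sequence by the authors were the count of its reads, the best matching miRNA, its mismatches and gaps, and an alignment score. Sums of mismatches and gaps reach 5 (15 reads of miR168 and miR162), where the methods state fewer than 5, and were kept.

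RPM used the totals of clean reads stated by the study. Ratios have exact conditional binomial intervals, shares Clopper-Pearson intervals and odds ratios Woolf intervals, all at 95%. With 1 library per condition no test was made. For a sequence with 0 reads, the limit given is that of 3 reads. Reads were placed without gaps on the main form of their family. Intervals and placement were tested on simulated data (Python 3.11.15, numpy 2.4.6, pandas 2.3.3, scipy 1.17.1, matplotlib 3.10.9).

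Sequences named are the 10 (miR168) or 5 (miR162) with most reads, the most abundant in each class of mismatches plus gaps and for each perfectly matched miRNA, and the 3 largest and 3 smallest ratios to NL (for CL) or CL (for S and FB). The substituted sequences, the ends and the balance of the families were described after their values were seen. The families, the pathway list (miR162, miR168, miR390, miR403, miR838, miR173 and miR828) and the rules were chosen with earlier results of these data known. Alternatives changed the denominator, the sequences used, the naming of families and the limits on reads and ratios.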

Additional observations from a re-analysis of the deposited data

How the results depend on the processing

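Each library stands alone, so that intervals cover counting error and no spread between plants. The direction of the CL to NL and S to CL ratios depended on the denominator. Per matched read the CL to NL ratio became 0.985 for miR168 and 0.805 for miR162, the S to CL ratio 2.21 and 1.95, and the FB to CL ratio 0.747 and 1.81. Per matched read without miR528 these were 1.31 and 1.07, 1.44 and 1.27, and 0.777 and 1.89. Scaled by the median ratio of sequences with over 100 reads in both libraries, the CL to NL ratio was 1.43 for miR168 and 1.17 for miR162, and the S to CL ratio 1.08 and 0.951. Per high-quality read, before the length filter, miR168 had 1.64, 0.555 and 0.513 for CL to NL, S to CL and FB to CL, and miR162 had 1.25 for FB to CL. The FB to CL ratio was below 1 for miR168 and above 1 for miR162 under every alternative that gave a value. Perfect matches alone gave 1.18, 0.520 and 0.534 for miR168 and no value for miR162, which has none. Without the most abundant sequence the values were 1.39, 0.469 and 0.493 for miR168, and the CL to NL ratio of miR162 was 1.21.

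Sorting all miR168 sequences by their base at position 21 moved the shares to 42.8%, 55.1%, 62.1% and 62.9% for cytosine in NL, CL, S and FB, to 47.5%, 33.2%, 32.6% and 29.6% for adenine and to 9.61%, 11.6%, 5.28% and 7.45% for uracil. The order of the libraries was kept for each base. Most of these reads are the main forms themselves, in NL 14838 of 15584 with cytosine and 15098 of 17304 with adenine. The kept order is therefore not a separate check of the shares. Of 145 values computed under alternatives, 81 stayed within the interval of the reported value or within 1.5 times the reported count. Of the others, 58 moved outside these limits and 6 reversed the direction of a called ratio. The turn of the miR162 CL to NL ratio, which was not called, is counted among the 58. Several alternatives recount nearly the same reads, so the tally does not measure stability.

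Counts of families called higher in CL than in NL, 11 as reported, were 3 with a ratio limit of 2, 6 with at least 1000 reads and 2 per matched read, and those called lower, 1 as reported, were 3 with at least 20 reads and 9 per matched read. For S to CL, families called higher (3) were 5 with at least 20 reads, 1 with at least 1000 and 16 per matched read, and those called lower (18) were 9 with at least 1000 reads and 5 per matched read. For FB to CL, families called higher (9) were 16 with at least 20 reads and 5 with at least 1000. Among sequences, with at least 20 reads the counts of higher and lower calls were 220 and 53 for CL to NL, 41 and 321 for S to CL, and 136 and 175 for FB to CL. Per matched read they were 38 and 61 for CL to NL, 64 and 62 for S to CL, and 58 higher for FB to CL. A ratio limit of 2 left 12 lower calls for CL to NL and 24 higher calls for FB to CL. No paired analysis was possible because each condition has 1 library.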
